A study of Mus musculus with 9 samples.

Results

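The mitochondrial ribosomal protein genes were the 76 genes of the TTP-AA vs TTP comparison whose symbol is Mrpl or Mrps, a number and at most 1 letter from a to c, out of 13205 genes listed there. No measured level entered that choice beyond the listing itself. The name pattern held 77 genes of the level table. The remaining gene, Mrpl53, was not listed and its highest fitted level was 0.35 reads. All cells were immortalized bone marrow-derived macrophages from mice deficient in tristetraprolin (TTP, gene Zfp36), an RNA-binding protein that shortens the life of mRNAs with AU-rich elements. They had been transduced with hcmyc and hRasG12V, were positive for CD11b and F4/80, and then received a tet-inducible vector for GFP alone, for GFP-TTP (TTP) or for GFP-TTP-AA (TTP-AA), in which the serines phosphorylated by the stress kinase MK2 are alanines. Every group, GFP included, was given doxycycline at 1 µg/ml for 6 h and LPS, the bacterial endotoxin, at 1 µg/ml for 1 h, and each of the 3 groups had 3 libraries. An arm without doxycycline or LPS was not analysed here, and a property of a transduced line and an effect of its transgene cannot be told apart. Nothing in the labels says that the 3 libraries of a group came from separate cultures.

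The mitochondrial ribosome translates the few mRNAs of mitochondrial DNA, which code for core subunits of the respiratory chain and of ATP synthase. Its RNA is made inside the organelle, whereas all of its proteins are encoded in the nucleus, made in the cytosol and imported. The large subunit (Mrpl genes) holds the site where peptide bonds form and the small subunit (Mrps genes) the site where the mRNA is read. The proteins must be present together for assembly, so their genes are read here as a module. The names are not an exact guide to place: Mrps18a and Mrps30 sit in the large subunit, and Mrps36 is now known as a subunit of the oxoglutarate dehydrogenase complex. With these taken into account, 49 members belonged to the large subunit and 26 to the small one.

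Levels are fitted values. The deposited level table holds, for each gene and library, the product of a library factor, a term for the replicate number and a term for the group, so no scatter between replicates remains in it and no p-value could be computed from it. Levels below are these fitted reads divided by the library factor, and a difference is that of the group means on the log2 scale. The spread of the 3 libraries of a group comes from the replicate-number term alone and is the same in each group by construction. Its range was 0.27 (log2) for the median member, from 0.05 to 0.76, against 0.32 for the median of all listed genes. Overlap of libraries therefore sets a difference against the size of that term only. Same-numbered libraries of 2 groups differ in the direction of the group means, except where those means are nearly equal. The ± beside a difference is counting error only, from the fitted reads, and is a lower bound on the true error. Sums of fitted reads ran from 21482954 in TTP replicate 1 to 102613526 in TTP-AA replicate 3. Most macrophage markers were high, with Csf1r between 18807 and 25714 scaled reads and Cd68 between 8238 and 11308. Adgre1 varied more, between 8345 and 34066, and Fcgr1 was lower, between 235 and 836. Mertk was the lowest of the macrophage markers searched, between 15.0 and 21.1. Of the dendritic cell markers, Flt3 lay between 193 and 282, and Itgax and Zbtb46 stayed at or under 46.8. Of the T cell, B cell, neutrophil, fibroblast and epithelial markers searched, those in the table stayed at or under 5.23. Zfp36 itself lay between 890 and 1744 scaled reads in GFP, between 914 and 1787 in TTP and between 1443 and 2828 in TTP-AA. Reads of the disrupted gene and of the transgene cannot be told apart in that sum.

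The members' genes are scattered over 17 chromosomes and are short. Of the 76, 75 were found in the GENCODE annotation of GRCm38 and all of these are protein-coding. Their transcripts had a median length of 1332 bases, against 2955 for 11629 protein-coding listed genes, and their 3′UTRs a median of 354 bases against 935. GC content was alike, with medians of 49.9% and 50.3%. Promoters, taken from RefSeq on GRCm38.p6 as 250 bases before the transcription start to 50 after it, matched 67 of the 76 members (73 promoters). They were searched on both strands for CCGGAAG, the core of sites of the ETS family, for GCGCATGC, the core of the site of NRF1, an activator of nuclear genes for mitochondrial proteins, and for AAGATGG, the core of the site of YY1. CCGGAAG was found in 32.9% of the members' promoters, in 17.7% of the promoters of listed genes and in 8.86% of all promoters. For GCGCATGC these shares were 11.0%, 5.35% and 2.71%, and for AAGATGG 17.8%, 7.24% and 6.34%. The 71 promoters of cytosolic ribosomal protein genes held CCGGAAG, GCGCATGC and AAGATGG in 33.8%, 4.23% and 16.9%, and the 66 of nuclear oxidative phosphorylation genes in 24.2%, 15.2% and 15.2%. The 100 bases upstream of the start are shown for 4 of the members that stood at the ends of the comparisons below. Other members at the ends are not shown. Capitals mark the motifs on either strand.
Mrpl52, chr14:54426809-54426908, plus strand: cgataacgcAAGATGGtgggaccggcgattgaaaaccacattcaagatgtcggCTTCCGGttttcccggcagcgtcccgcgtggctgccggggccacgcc
Mrpl43, chr19:45006443-45006542, minus strand: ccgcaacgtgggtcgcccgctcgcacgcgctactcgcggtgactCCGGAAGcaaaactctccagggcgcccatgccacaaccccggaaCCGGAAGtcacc
Mrpl22, chr11:58171564-58171663, plus strand: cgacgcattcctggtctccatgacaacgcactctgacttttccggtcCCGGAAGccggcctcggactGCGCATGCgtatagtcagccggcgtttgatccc
Mrps31, chr8:22411240-22411339, plus strand: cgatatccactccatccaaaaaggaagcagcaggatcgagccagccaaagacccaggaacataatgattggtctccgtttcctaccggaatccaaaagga
Mrpl52 and Mrpl22 both carried the ETS core in this window. Mrpl52 was the member most above GFP in TTP-AA and Mrpl22 one of those most below it. Mrps31 carried none of the 3 motifs in its whole window. Of other members at the ends, Mrpl16, Mrps6 and Mrps10 carried none in theirs either, while Mrpl21 and Mrps21 carried the ETS core. The 36 members with any of the motifs had a median difference of 0.10 for TTP vs GFP and of -0.06 between TTP-AA and TTP. The 31 without had 0.12 and -0.09.

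The genes differed widely in abundance before any comparison. Per kb of the transcript with the longest coding sequence, mean scaled levels ran from 318 for Mrpl47, a protein at the exit of the peptide tunnel, to 6885 for Mrpl20, a 21.7-fold range, with a median of 1624. The median was 1790 per kb for 48 large-subunit members and 1207 per kb for 26 small-subunit members, with ranges of 318 to 6885 and 405 to 5070. After Mrpl20 came Mrpl12 at 5918 per kb, the stalk protein that is present in several copies per ribosome and contacts translation factors. Mrps21 followed at 5070 and Mrpl28 at 4817 per kb. At the low end, Mrpl17 had 358, Mrpl48 378 and Mrps5 405 per kb. Of the 74 pairs of neighbours in this order, 67 lay closer to each other than the smaller of their ranges over the replicate numbers. The 3 homologues of a single bacterial protein had 4416 per kb for Mrps18a, 3293 for Mrps18c and 2045 for Mrps18b; with all exons of a gene joined, the values were 1058, 1953 and 1056, and Mrps18a was no longer the highest. Mrps36 was the least abundant member in reads (mean 299) and Mrpl12 the most abundant (mean 7771), in the mean signal given by the authors. Lengths rest on 1 transcript per gene: with all exons of a gene joined, 4 of the 8 members named at the ends of the order stayed there.

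**Figure D1:**
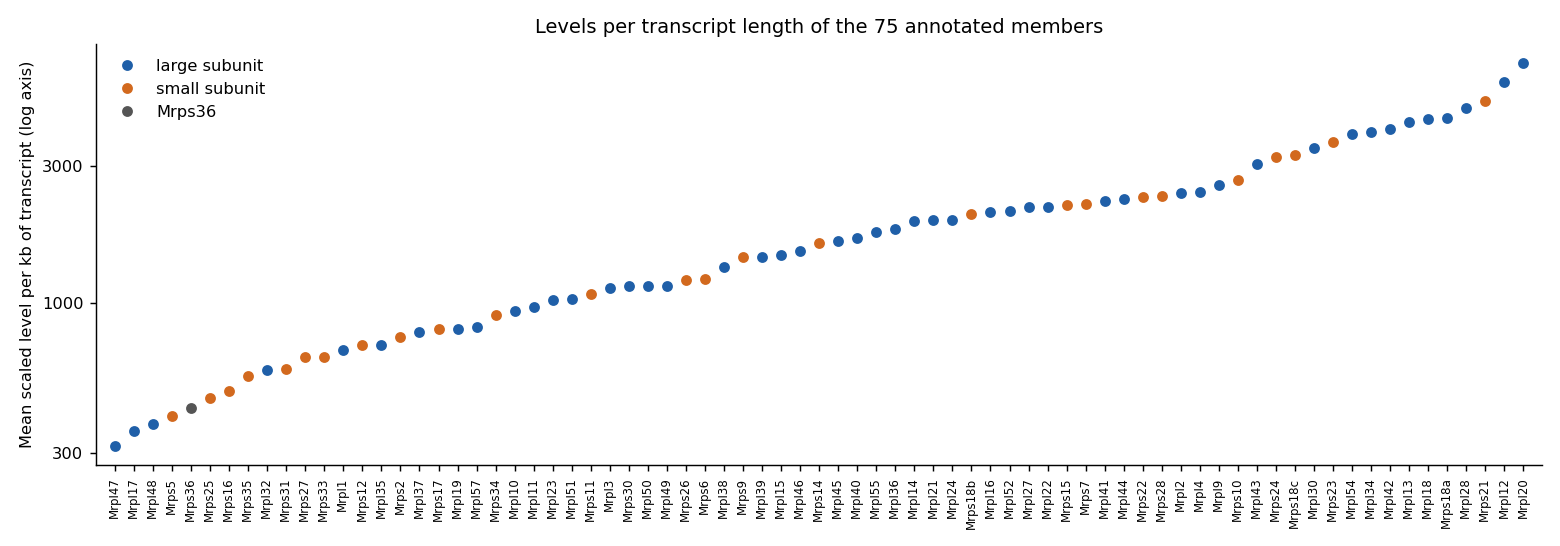
Mean scaled fitted level over the 9 libraries per kb of transcript (log axis) for the 75 annotated members, ordered by level and coloured by subunit. Large- and small-subunit members are mixed along most of the range from 318 to 6885 per kb, with large-subunit members alone at both ends.

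TTP against GFP addressed the effect of a TTP that can still be phosphorylated. Most members had a small positive difference, 64 of the 76, where 49.7% of all listed genes did, and the median was 0.10 with a range from -0.29 to 0.41. In these bulk samples, fewer cells of a kind and less RNA per cell cannot be told apart. A limit of 0.32 (log2), an upward change of 25%, was passed upward by 2 members (2.63%), against 4.48% of all listed genes, and downward by 0, against 8.09%. Among the 8966 other listed genes with a mean at least that of the lowest member, 52.6% had a positive difference. The large subunit had a median of 0.12 (41 of 49 positive) and the small subunit 0.10 (23 of 26). Members of protein families shared with bacteria had a median of 0.10 (39 of 47 positive) and the other members 0.13 (25 of 29).

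Mrpl16, a large-subunit protein conserved in all ribosomes, was the member with the highest difference. Its scaled levels were 1853, 2103 and 2265 in GFP replicates 1 to 3 and 2460, 2771 and 3011 in TTP. Every TTP library stood above every GFP library, and the difference was 0.41 ± 0.03. The TTP-AA libraries had 2162, 2443 and 2641, between the other groups on average. Mrpl43, also of the large subunit, had 3220, 4062 and 3864 in GFP and 4132, 5173 and 4965 in TTP, again without overlap (0.36 ± 0.02). Mrpl21 followed at 0.30 ± 0.03 and Mrps34 at 0.30 ± 0.03, both with overlapping libraries. Mrps34 varied most with the replicate number of all members, from 1211 to 2056 within GFP and from 1496 to 2544 within TTP.

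At the other end stood Mrps21, a small-subunit protein, with 2419, 2927 and 2526 in GFP and 1982, 2380 and 2073 in TTP. All TTP libraries were below all GFP libraries, at a difference of -0.29 ± 0.03. Mrpl24, a large-subunit protein near the tunnel exit, differed by -0.15 ± 0.02, Mrps36 by -0.15 ± 0.07 and Mrps33 by -0.14 ± 0.05, each less than the range over the replicate numbers. In all, 13 of the 76 members had TTP and GFP libraries that did not overlap, 12 of them higher in TTP, while 19.5% of all listed genes had no overlap. The 12 were Mrpl1, Mrpl15, Mrpl16, Mrpl18, Mrpl37, Mrpl43, Mrpl45, Mrpl49, Mrpl50, Mrps5, Mrps9 and Mrps22. Mrps5, which lines the path of the mRNA, had 1782, 1709 and 1722 in GFP and 2063, 1963 and 1996 in TTP, a difference of 0.21 ± 0.03.

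**Figure D2:**
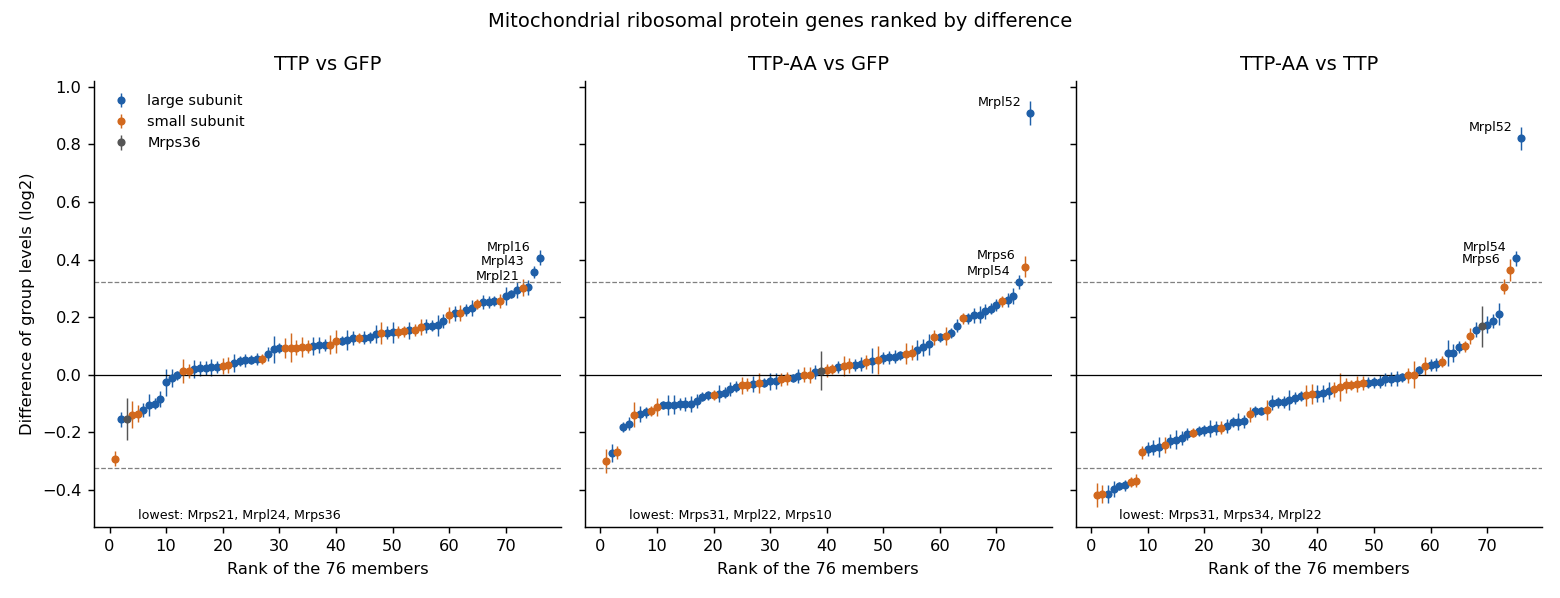
Difference of group levels (log2) of the 76 members, ranked within each comparison and coloured by subunit, with bars for counting error and dashed lines at 0.32 and its negative. For TTP vs GFP 64 members lie above 0 and 2 above the upper line, and Mrpl52 stands alone at the top of both comparisons of TTP-AA.

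TTP-AA against GFP addressed a TTP that cannot be phosphorylated at these serines. Here the module as a whole was not shifted to either side: the median was 0.01, with 40 of the 76 members positive against 50.4% of all listed genes. The median changed sign under 2 other ways of scaling or correcting, to -0.0045 with library factors taken over all genes with a mean of at least 1 and to -0.012 with GC content and length trends removed. The median of the listed genes as a whole was then -0.015 and -0.016, against 0.0015 before. Upward, 3 members passed the limit (3.95%), against 11% of all listed genes, and downward 0 did, against 9.63%. The libraries of 6 members did not overlap, where 25% of all listed genes had no overlap. Medians were 0.01 for the large subunit (25 of 49 positive) and 0.01 for the small one (14 of 26).

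Mrpl52, a large-subunit protein without a bacterial counterpart, was the exception in size. Its scaled levels were 639, 673 and 691 in GFP, 681, 711 and 737 in TTP and 1201, 1259 and 1298 in TTP-AA. Both the GFP and the TTP libraries were far below the lowest TTP-AA library, whereas GFP and TTP overlapped. The difference of TTP-AA was 0.91 ± 0.04 against GFP and 0.82 ± 0.04 against TTP. The gene lies at chr14:54426909-54429756 on the plus strand. The next listed gene, Slc7a7, lay 9129 bases away and had a mean of 10.9 reads. It differed in the same direction, by 0.58 against GFP and 0.80 against TTP. Gm24424, 20202 bases away and with a mean of 11.9 reads, was at 0.38 and 0.31, and Lrp10, 34381 bases away, at 0.45 and 0.46. Oxa1l, which codes for the membrane insertase that receives the products of mitochondrial ribosomes and lies 57236 bases away, was at 0.01 and -0.06.

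Mrps6, of the small subunit, had 884, 1002 and 904 in GFP, 893, 1006 and 915 in TTP and 1149, 1297 and 1174 in TTP-AA. No TTP-AA library overlapped with either other group (0.38 ± 0.04 against GFP). Its exons overlap those of Slc5a3, a myo-inositol transporter gene on the same strand, which was -0.28 for TTP-AA vs GFP, so reads placed in the shared exons are uncertain for both. Mrpl54 had 1865, 2401 and 2387 in GFP and 2336, 2994 and 2988 in TTP-AA, with 1 TTP-AA library within the GFP range (0.32 ± 0.02). It lay just past the limit and fell short of it under 5 alternatives. Mrpl36 was at 0.27 ± 0.03, without overlap. Lowest were Mrps31 at -0.30 ± 0.04, whose libraries did not overlap, Mrpl22 at -0.27 ± 0.03, Mrps10 at -0.27 ± 0.02 and Mrpl9 at -0.18 ± 0.02, these last with overlap.

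**Figure D3:**
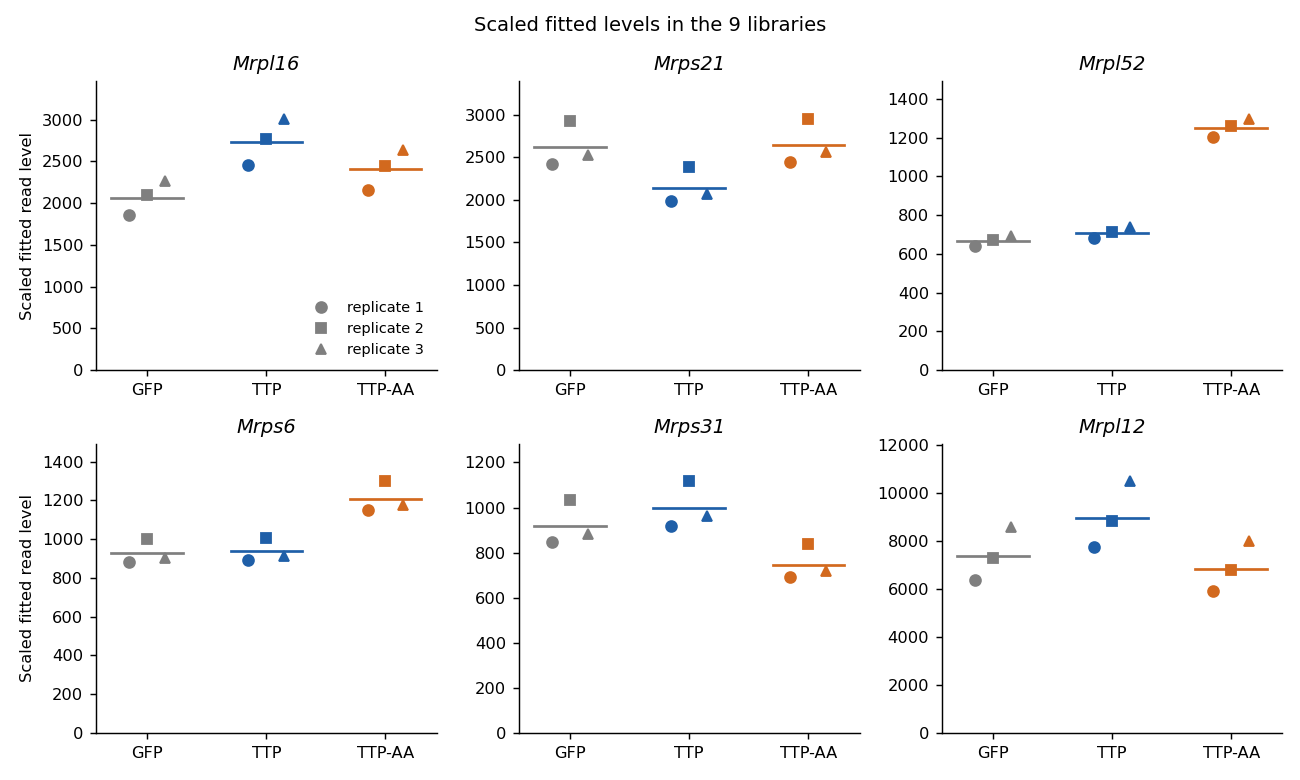
Scaled fitted read level in each of the 9 libraries for 6 members, with symbols for the replicate number and lines for the group level. The same order of symbols recurs in every group because the table holds fitted values. Mrpl52 and Mrps6 are high in TTP-AA alone, Mrpl16 is highest in TTP, Mrps21 is low in TTP, and Mrps31 and Mrpl12 are lowest in TTP-AA.

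TTP-AA against TTP compared both forms of the protein directly and shared its TTP libraries with the first comparison and its TTP-AA libraries with the second. Zfp36 reads were also 0.66 (log2) higher in TTP-AA than in TTP, and 0.03 higher in TTP than in GFP. The form of the protein and the level of Zfp36 reads therefore cannot be told apart here. By western blot, the paper reports similar amounts of both fusion proteins before and after LPS. Most members were lower in TTP-AA: 20 of the 76 had a positive difference, against 50% of all listed genes, and the median was -0.07. The limit was passed downward by 8 members (10.5%), against 12.1% of all listed genes, and upward by 3 (3.95%), against 16.1%. Without overlap were 18 members, 12 lower and 6 higher in TTP-AA, where 30.8% of all listed genes had no overlap. Both subunits had negative medians, -0.09 for the large one (12 of 49 positive) and -0.05 for the small one (7 of 26).

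The 8 members past the limit downward were Mrps31, Mrps34, Mrpl22, Mrpl38, Mrpl12, Mrps30, Mrps23 and Mrps10, of which 4 had libraries that did not overlap. Mrps31 had 920, 1116 and 962 in TTP and 690, 839 and 720 in TTP-AA. Its TTP-AA libraries were all below its TTP libraries, at -0.42 ± 0.04. Mrps34 differed by -0.41 ± 0.03, less than its range over the replicate numbers, with 1496, 1983 and 2544 in TTP and 1123, 1493 and 1906 in TTP-AA. The difference was -0.41 ± 0.03 for Mrpl22, which lines the peptide tunnel, with 1540, 1895 and 1877 in TTP and 1156, 1428 and 1406 in TTP-AA, without overlap. Mrpl38, of the central protuberance, differed by -0.40 ± 0.03. The stalk gene Mrpl12 had 7743, 8835 and 10494 in TTP and 5928, 6786 and 8018 in TTP-AA, a difference of -0.38 ± 0.01 with overlapping libraries. Mrps30 had 3813, 4730 and 4572 in TTP and 2921, 3635 and 3496 in TTP-AA, without overlap (-0.38 ± 0.02).

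Higher in TTP-AA were Mrpl52, Mrpl54 (0.40 ± 0.03) and Mrps6 (0.36 ± 0.04), all without overlap, and below the limit Mrps21 (0.31 ± 0.03). Of the homologues in the Mrps18 group, Mrps18a was at -0.19 ± 0.02, Mrps18b at -0.04 ± 0.03 and Mrps18c at -0.03 ± 0.03. Mrps12, which forms part of the decoding centre, was at -0.04 ± 0.05. For TTP vs GFP these 4 stood at 0.13, 0.17, 0.03 and 0.09, each within the range over the replicate numbers. Mrps36, the member that is not a ribosomal protein, was at 0.17 ± 0.07.

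**Figure D4:**
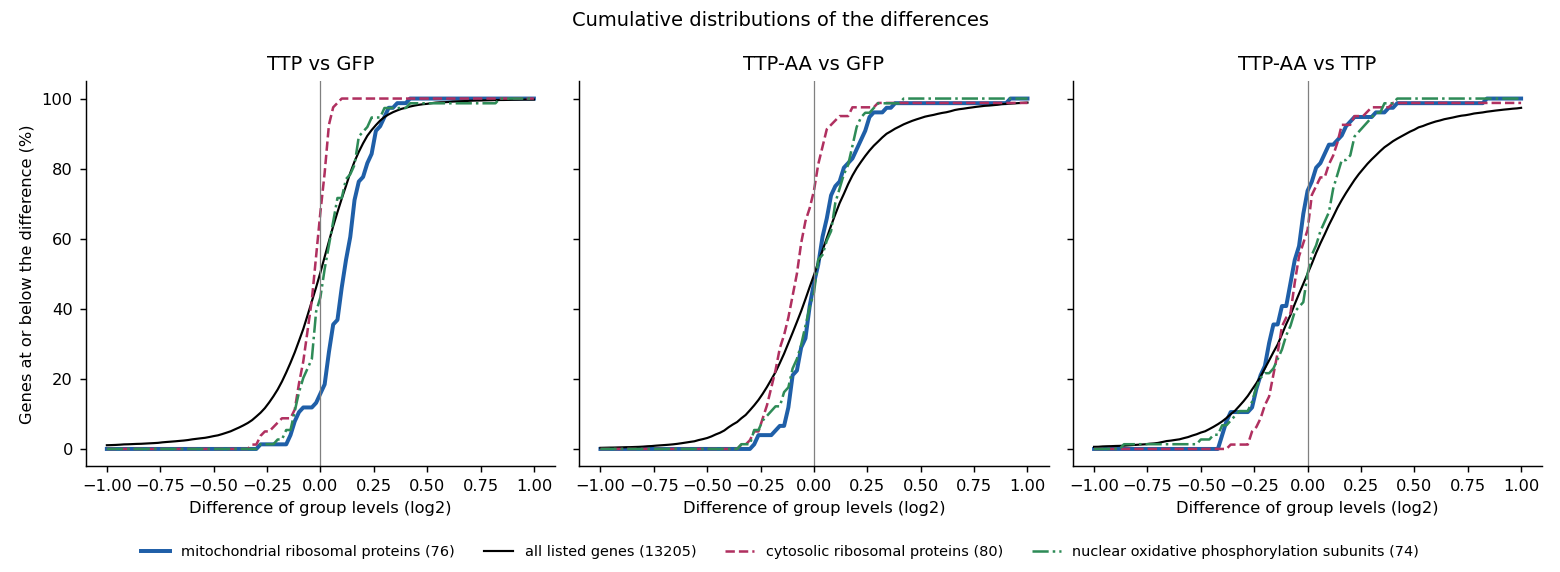
Cumulative percentage of genes at or below each difference (log2) for the 76 members, the 80 cytosolic ribosomal protein genes, the 74 nuclear oxidative phosphorylation genes and all 13205 listed genes. For TTP vs GFP the curve of the members lies to the right of the other 3 over most of the range. In all comparisons it is steeper than that of all genes, as are those of the cytosolic ribosomal protein and oxidative phosphorylation genes.

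The differences of the members moved with those of their chromosomes. The 5 members on chromosome 19 (Mrpl11, Mrpl16, Mrpl21, Mrpl43 and Mrpl49) were at 0.19 to 0.41 for TTP vs GFP, where the 459 other listed genes of that chromosome had a median of 0.18. On chromosome 3, all 5 members (Mrpl9, Mrpl24, Mrpl47, Mrps21 and Mrps28) were negative, from -0.29 to -0.10, and the other 652 genes had a median of -0.19. On chromosome 10, Mrpl42 and Mrpl54 were at -0.12 and -0.08 and the other 624 genes at -0.13. Across the 76 members, which share the libraries and in part the chromosomes, Pearson's r between a member's difference and the median of the other genes on its chromosome was 0.75 (Spearman's rho 0.62). For TTP-AA vs GFP it was 0.37 (rho 0.46), and for TTP-AA vs TTP 0.50 (rho 0.51).

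With the chromosome median of the other genes subtracted, the difference for TTP vs GFP was as large, with a median of 0.11 and 70 of the 76 members positive, while the SD over members went from 0.13 to 0.09. No member then passed the limit upward (3.99% of all listed genes did), since Mrpl16 came to 0.22 and Mrpl43 to 0.17, and at the other end Mrps21 came to -0.10 and Mrpl24 to 0.04. For TTP-AA vs TTP the centred median was -0.08, with 23 members positive, and 4 instead of 8 passed the limit downward (11.2% of all listed genes under the same centring) and 1 instead of 3 upward (15.3%). For TTP-AA vs GFP, 2 passed it upward, Mrpl52 and Mrps7 (0.36), where 10.4% of all listed genes did, while Mrps6 came to 0.26 and Mrpl54 to 0.30. Without that subtraction, 9 of 10 members on chromosome 11 were negative for TTP-AA vs TTP, and the other 1115 genes had a median of -0.13. On chromosome 17, by contrast, all 8 members (Mrpl2, Mrpl14, Mrpl18, Mrpl28, Mrps10, Mrps18a, Mrps18b and Mrps34) were negative for TTP-AA vs TTP. Their median was -0.21, although the other 660 genes stood at -0.01. On chromosome 16, Mrpl39, Mrpl40 and Mrps6 were at 0.24, 0.26 and 0.38 for TTP-AA vs GFP, with 0.12 for the other 405 genes. For Mrpl52, the other 415 genes of chromosome 14 had a median of -0.02, while its 3 nearest listed genes were at 0.38 to 0.58.

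**Figure D5:**
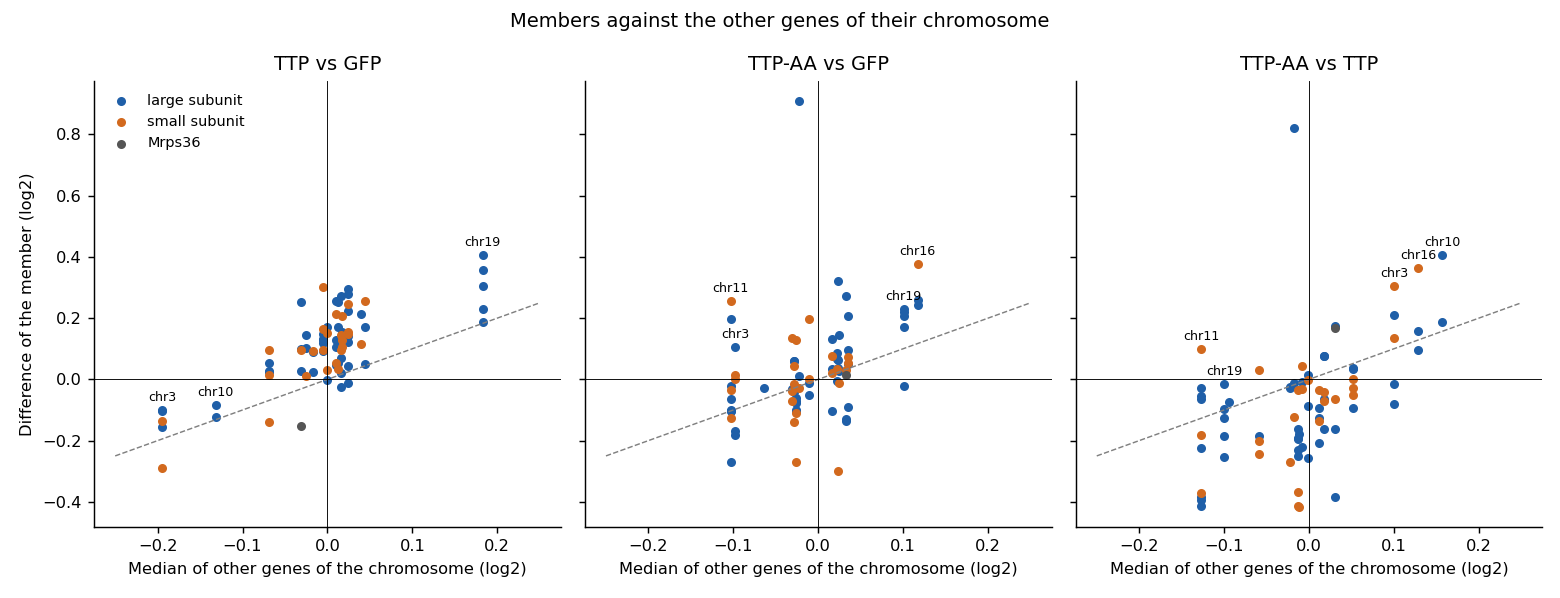
Difference of each member (log2) against the median difference of the other listed genes on its chromosome, coloured by subunit, with a dashed line of equality and labels for chromosomes with more than 1 member and a median beyond 0.09. For TTP vs GFP most members lie above the line on every labelled chromosome; the lone point at the top of both comparisons of TTP-AA is Mrpl52.

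Other genes that serve the mitochondrial ribosome were read from lists. The 17 mitochondrial aminoacyl-tRNA synthetases, which load tRNAs for it, had a median of 0.18 for TTP vs GFP (14 positive), -0.09 for TTP-AA vs GFP (4 positive) and -0.17 for TTP-AA vs TTP (1 positive), and 6 of the 17 passed the limit downward in the last, where 12.1% of all listed genes did. Iars2 differed by -0.72 there and Lars2, the 1 positive gene, by 0.21. Their ranges over the replicate numbers were 0.57 and 1.49. The 12 translation factors had medians of 0.12, -0.21 and -0.33, and 10 of the 12 were negative in each comparison of TTP-AA. Tufm, the elongation factor that delivers tRNAs, was at 0.41 in the first comparison and -0.69 in the last. The 19 genes of mitoribosome assembly and rRNA modification had medians of 0.13, -0.05 and -0.24, with 4 past the limit downward for TTP-AA vs TTP and 0 upward. The 8 genes of mitochondrial transcription and RNA stability were all positive for TTP vs GFP (median 0.21), with -0.01 and -0.27 in the other comparisons. Pnpt1, a polynucleotide phosphorylase of mitochondria, was at -0.82 for TTP-AA vs TTP, with a range over the replicate numbers of 0.58. Slirp was highest of the 8 there, at 0.24 with a range of 0.25. The 6 listed mitoribosome proteins with names outside the pattern had medians of 0.07, -0.06 and -0.04. For TTP-AA vs TTP, Ptcd3 was lowest at -0.48 and Chchd1 highest at 0.13. Of the 13 mRNAs of mitochondrial DNA, which the ribosome translates, 0 were listed under the symbols searched, so they were not analysed here.

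Genes of related machines gave other values. The 80 cytosolic ribosomal protein genes had medians of -0.03, -0.08 and -0.05, with 26, 21 and 30 positive. Libraries did not overlap for 0, 3 and 2 of them, against 19.5%, 25% and 30.8% of all listed genes. Their median range over the replicate numbers, which a difference must exceed, was 0.37, against 0.27 for the members. Counts of the cytosolic genes may include reads of processed pseudogenes. The 74 nuclear genes of oxidative phosphorylation, whose products assemble with those made by the mitochondrial ribosome, had medians of 0.02, 0.01 and 0.01, with 42, 41 and 37 positive. Beside them, the members' 64, 40 and 20 of 76 were more one-sided in the first and the last comparison. No test of these contrasts between lists could be made from fitted levels.

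TATTTAT, the core of the AU-rich sites that TTP favours, was found in the 3′UTR of 11 of 75 members (14.7%) and of 26.9% of 11629 protein-coding listed genes, and its shorter form ATTTA in 54.7% and 64.9%. The 11 were Mrpl3, Mrpl17, Mrpl24, Mrpl32, Mrpl35, Mrpl45, Mrpl51, Mrps10, Mrps14, Mrps30 and Mrps35. Their 3′UTRs were long, with a median of 2560 bases against 311.5 for the other 64. Sites of 4 of them are shown, with the motif in capitals: those of Mrps30 and Mrps10, which were among the members lower in TTP-AA than in TTP, and those of Mrpl45 and Mrpl51, which hardly differed. They were read from GENCODE transcripts on GRCm38.
Mrps30, chr13:118378402-118378431, minus strand: cttgaaattctTATTTATttattttttttt
Mrps10, chr17:47378570-47378599, plus strand: tattttgttctTATTTATttatccatccat
Mrpl45, chr11:97329537-97329566, plus strand: tttttgagatgTATTTATtttatgtgtgtg
Mrpl51, chr6:125193690-125193719, plus strand: gaatttattttTATTTATtttatcttattt
In Mrps30 and in Mrps10 a further copy overlaps the one in capitals. Members with TATTTAT had median differences of 0.07 for TTP vs GFP (10 of 11 positive), 0.02 for TTP-AA vs GFP (6 positive) and -0.03 for TTP-AA vs TTP (2 positive). For the 64 without it the medians were 0.12 (54 positive), 0.01 (34 positive) and -0.08 (18 positive). TTP-AA differed in Mrpl45 by 0.20 from GFP and by -0.03 from TTP, and in Mrpl51 by 0.06 and 0.03.

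Counting affects some of these values. Exons of 30 annotated members overlap those of another gene, on the other strand in 26 and on the same strand in 6. Whether reads were counted by strand was not given in the sources used here. Among the members named above, for example, Mrpl43 overlaps Twnk, the gene of the mitochondrial DNA helicase. Twnk was at 0.43 in TTP against GFP and -0.56 in TTP-AA against TTP. Mrps34 overlaps Mapk8ip3 and Nme3, and Mrpl12 overlaps the long noncoding RNA Gm16755, which was at 0.15 and -0.27. Mrps7 overlaps Gga3 and Mif4gd, which were at 0.40 and 0.20 for TTP-AA vs GFP. Mrpl21 overlaps Ighmbp2, at 0.28 for TTP vs GFP, and Mrps30 overlaps B430218F22Rik, at -0.21 for TTP-AA vs TTP. Mrpl36 overlaps Ndufs6, which went the other way from Mrpl36, at -0.10 for TTP-AA vs GFP. Mrps11 and Mrpl46, which start next to each other on opposite strands, overlap each other and were at 0.14 and 0.27 for TTP vs GFP. Mrps36 and Mrpl23 have annotated pseudogene copies, with which they may share reads.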

How the data were processed

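Ribosomal RNA-depleted total RNA had been sequenced in 9 libraries, 3 per group. According to the methods and the submitters' processing notes, the authors trimmed reads with Trim Galore, aligned them with TopHat2 (version 2.0.12 in the notes) to mm10 with the GRCm38 annotation, keeping up to 2 placements per read, counted them with HTSeq and fitted DESeq2 1.6.3 with library date and condition. The methods give an earlier TopHat version than the notes. The level table deposited by the authors is a signal in reads. On the log2 scale it equals a sum of library, replicate-number and group terms within 8.0e-15, so it holds fitted means; it has 25494 genes and 10 repeated identifiers. Whether the group terms were shrunk was not given in the sources used here. The comparison tables deposited by the authors hold a mean signal, log2 fold changes with standard errors, Wald scores and p-values. Of these, the gene list and the mean signal of the TTP-AA vs TTP table were used (first row per gene, 13205 genes, lowest mean 8.98) and nothing else.

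Levels were divided by median-of-ratios library factors and differences taken between group means of log2 values; no test was run. A gene counted as past the limit at a log2 difference of 0.32, an upward change of 25%. Libraries were said not to overlap where a difference exceeded the range of the replicate-number term. The steps were checked on simulated data. Annotation came from GENCODE M21 and RefSeq promoters. Per comparison, the 4 highest and 4 lowest members were named, with the 4 highest and 4 lowest per kb and Mrps12, Mrps18a, Mrps18b, Mrps18c, Mrps30, Mrps36 and Mrpl12; others were named afterwards, as members past the limit, without overlap or on named chromosomes, and list or neighbouring genes were chosen after their values were seen. Members and lists were chosen with earlier results of these data known. Alternatives were other library scalings, chromosome centring, a GC and length trend, a fold of 1.5, a mean of at least 50, union exons and leaving out each replicate number. The scripts ran under Python 3.11.15 (scipy 1.17.1, pandas 2.3.3, numpy 2.4.6).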

Additional observations from a re-analysis of the deposited data

How the results depend on the processing

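The median difference of the members stayed positive for TTP vs GFP under every alternative run, between 0.09 and 0.12. For TTP-AA vs TTP it stayed negative, but went from -0.07 to -0.12 with GC content and length trends removed (15 positive members instead of 20) and to -0.04 with upper quartile scaling (26 positive). The median of the listed genes as a whole moved the same way, from -9.0e-05 to -0.04 and to 0.02. For TTP-AA vs GFP the median of the members turned from 0.01 to -0.0045 with factors over all genes with a mean of at least 1 and to -0.012 with GC content and length trends removed. That of the listed genes as a whole went from 0.0015 to -0.015 and to -0.016. With each chromosome centred, members past the limit became 0 upward for TTP vs GFP, 2 upward and 1 downward for TTP-AA vs GFP, and 1 upward and 4 downward for TTP-AA vs TTP (all listed genes 3.99%, 10.4%, 9.18%, 15.3% and 11.2%). Of the members past it before, Mrpl16 (0.22) and Mrpl43 (0.17) fell short for TTP vs GFP. In both comparisons of TTP-AA, Mrps6 (0.26 against GFP, 0.23 against TTP) and Mrpl54 (0.30 and 0.25) fell short upward. Downward, Mrpl22 (-0.29), Mrpl38 (-0.27), Mrpl12 (-0.26) and Mrps23 (-0.25) fell short for TTP-AA vs TTP. The upward count for TTP-AA vs GFP was also 2 with column sums, with factors over all genes with a mean of at least 1, with the trends removed and without replicate 3, where Mrpl54 came to 0.31, 0.31, 0.26 and 0.32, just short of the limit. At a limit of a 1.5-fold change they became 0 upward for TTP vs GFP, 1 upward for TTP-AA vs GFP, and 1 upward and 0 downward for TTP-AA vs TTP, where 1.03%, 4.32%, 6.89% and 2.98% of all listed genes passed. With union exons, 4 of 8 members stayed at the ends of the order per kb. Without replicate 1, 2 or 3 the medians were 0.10 to 0.11, 0.0095 to 0.018 and -0.067 to -0.065; only the scaling can move them, since the group terms are fitted. Differences of single named members moved by more than their SD over the replicate numbers in 8 of 216 recalculations, all under chromosome centring or the trend. Counts of positive members were added after the data were seen. No paired analysis was possible because these levels are fitted and carry no scatter, and the model behind them has a library date term; the limma fits planned with and without the replicate block were not run for that reason. Depth limited Mrps36 most, with a counting error of up to 0.07 against 0.03 for the median member.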
